A study of Mus musculus with 6 samples.

Results

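Transcripts of 7 genes of glycogen metabolism were measured in mouse quadriceps: Ugp2, Gys1, Gbe1, Pygm, Phkg1, Phka1 and Phkb. They were chosen by name as enzymes that build glycogen, break it down or switch its breakdown on. Earlier results of these data were known when they were chosen. All 7 were present among the 18194 genes with a value. Platform annotation paired 15 probe sets with exactly 1 of these symbols, from 1 probe set for Gbe1, Pygm and Phkb to 5 for Ugp2. Total RNA came from 2-month-old C57/Bl6 mice and was hybridised to 1 Affymetrix mouse array per sample. The knockout group held 3 samples that carried a skeletal alpha-actin cre transgene and Pofut1 flox/flox alleles. The 3 control samples carried that cre transgene too, with Pofut1 wild type. The promoter of skeletal alpha-actin drives cre in skeletal muscle fibres, so other cells of the tissue keep Pofut1. The comparison asked which transcripts differ when the gene for protein O-fucosyltransferase 1, which adds fucose to EGF-like repeats, is deleted in muscle.

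Glycogen is the branched glucose store that muscle fibres draw on when they contract. Ugp2 makes UDP-glucose, whose glucose is added to the growing chains by glycogen synthase, Gys1 in muscle, and branch points are set by Gbe1. In breakdown, the muscle glycogen phosphorylase Pygm releases glucose 1-phosphate. Phosphorylase kinase switches it on, through the catalytic gamma subunit Phkg1 and the regulatory subunits Phka1 and Phkb, together with calmodulin.

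Before the results, the arrays themselves need a description. The array labelled control replicate 3 correlated with the other 5 at 0.940 to 0.945 over all genes, whereas those 5 correlated with each other at 0.980 to 0.991. The ratio of the 3' to the 5' Gapdh probe set, a measure of RNA integrity, was 3.70 in knockout replicate 2 and 10.5 in that array, against 1.73 to 1.97 in the rest. Female-pattern Xist (1349 and 1414) was found in knockout replicate 2 and control replicate 2 and was at most 67.6 elsewhere. Pofut1 read 220.1, 231.1 and 194.3 in knockout samples and 301.4, 379.8 and 90.6 in controls. Its lowest value thus lay in the library labelled control replicate 3, which would go against that label only if this probe set reads the deleted part. Every direction given for the control group includes this library unless stated. The sources used here do not say where this probe set lies relative to the deletion, and it checks the knockout only if it lies inside. The 2 other Pofut1 probe sets read 44.3 to 74.9, under the background of 83.5. All 18 skeletal muscle markers were bright in every array (2183 to 14769), and the 7 measured hepatocyte markers read 38.9 to 88.2, at or near the background of 83.5. That background is the 95th percentile of the means over all arrays of 44 genes restricted to other tissues.

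None of the 7 glycogen genes passed the test between knockout and control muscle. In limma with Benjamini-Hochberg adjustment over all genes, 0 of 7 were called at an adjusted p under 0.05, against 0% of all genes. Gbe1, the branching enzyme gene, had the largest difference of the 7, at 1.66-fold higher in the knockout, and it was the 1 member with an unadjusted p under 0.05, a level reached by 2.58% of all genes. The groups did not overlap for 3 members. Gbe1 and Phkg1 were higher in every knockout array than in any control array, as were 3.33% of all genes, and Ugp2 was lower in every knockout array, as were 5.68%. For Gys1, Pygm, Phka1 and Phkb the groups overlapped. With 3 against 3 arrays an exact permutation test cannot give a p under 0.1. The median log2 fold change of the 7 was 0.08, against -0.01 over all genes, with 4 members higher and 3 lower. That median was 0.026 over the 9662 genes above background. Over the 18 skeletal muscle markers it was 0.1, with 16 higher and 2 lower. In whole tissue, fewer cells of a type and less RNA per cell cannot be told apart.

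**Figure D1:**
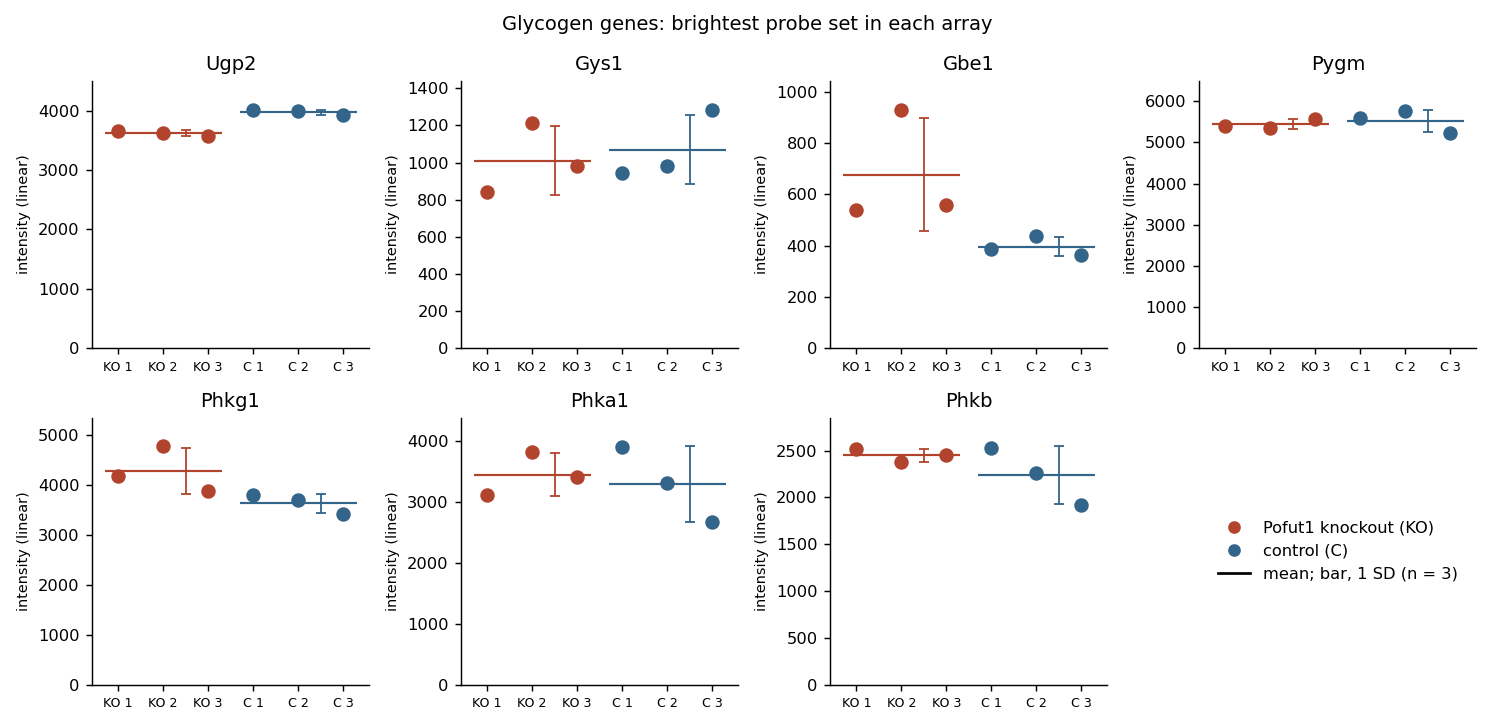
Linear intensity of the brightest probe set of each gene in every array, with knockout (red) left of control (blue). Horizontal lines are group means and bars 1 SD (n = 3). Gbe1 in knockout arrays (539.8 to 930.6) and Phkg1 (3873 to 4769) lie above all control arrays, and Ugp2 (3563 to 3663) lies below them.

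On the side of synthesis, Ugp2, the UDP-glucose pyrophosphorylase gene, had intensities of 3663, 3618 and 3563 in knockout arrays 1 to 3, against 4002, 3991 and 3921 in control arrays 1 to 3. The spread within each group was small and the groups were apart. The difference was 1.10-fold lower in the knockout (log2 fold change -0.14 ± 0.09 SE, 95% interval -0.34 to 0.07; limma adjusted p = 0.971). The exact two-sided permutation p was 0.1, the smallest that the design allows. This held for the brightest of 5 probe sets, and the others did not all give it. Probe set 1426460_a_at was also lower in every knockout array (1144 to 1339, against 1374 to 1417 in controls), at -0.16 on the log2 scale. Groups overlapped for 1426461_at (-0.09), 1451742_a_at (-0.07) and 1434486_x_at (0.05), the last a type of probe set that can also bind related transcripts. With the mean of the 5 probe sets in place of the brightest, the log2 fold change was -0.08.

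Gys1, muscle glycogen synthase, read 839.5, 1211 and 980.7 in knockout arrays 1 to 3 and 945.4, 978.8 and 1285 in control arrays 1 to 3. The highest value of each group lay in the array with the high 3' over 5' ratio. Both of these arrays stood 0.42 above the mean of the other arrays of their group on the log2 scale. The log2 fold change was -0.08 ± 0.20 (SE, 95% interval -0.55 to 0.38; limma adjusted p = 0.975), and it became 0.04 without knockout replicate 1 and 0.05 without control replicate 3. Its dimmer probe set 1450196_s_at read 79.0 to 110.4 in knockout arrays and 84.8 to 114.0 in controls, close to background, with a log2 fold change of -0.05.

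Gyg, the glycogenin gene whose product primes new glycogen particles, had the same order of arrays within each group as Gys1. It read 4039, 5375 and 4454 in knockout arrays and 3556, 3821 and 5401 in control arrays. The same 2 arrays had the highest sums of slow-fibre markers, which a few bright genes carry. The summed intensity of the 10 slow-fibre markers was 11605, 17382 and 11055 in knockout arrays and 4462, 11673 and 16523 in controls. Control replicate 1 had the lowest value for 8 of the 10. Not every marker followed the sum: Tpm3 was at its lowest in control replicate 3 (836.5), and the median of the list there (1164) was below that in control replicate 2 (1210.0). The part of RNA quality or of fibre make-up in the values of Gys1 and Gyg was not tested.

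**Figure D2:**
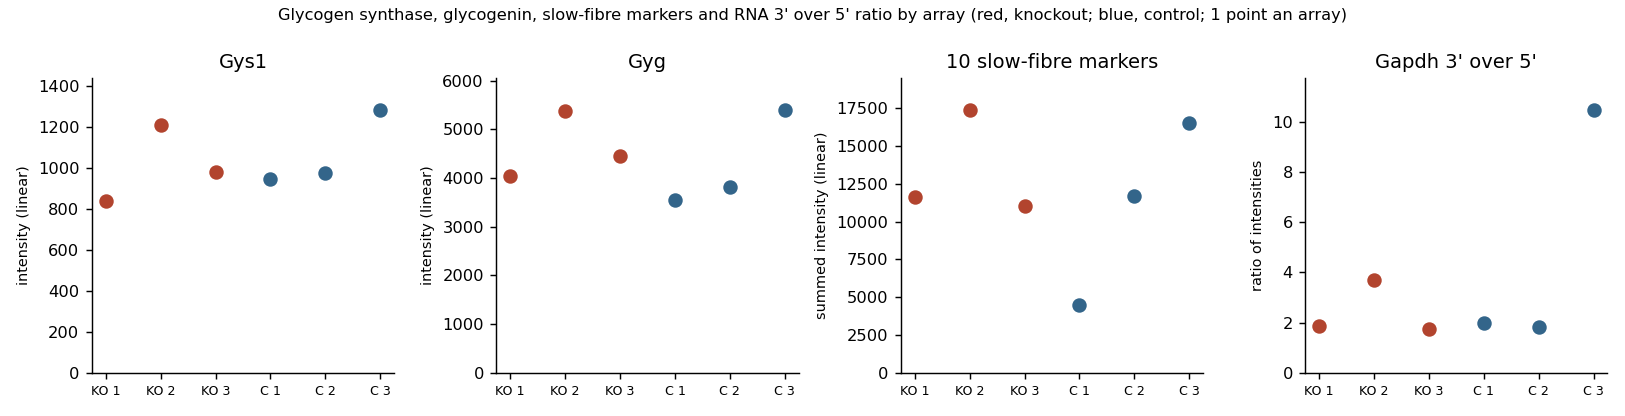
Intensity of Gys1 and Gyg, summed intensity of 10 slow-fibre markers, and the Gapdh 3' over 5' ratio in each array (knockout red, control blue, 1 point an array, all axes linear from 0). Knockout replicate 2 and control replicate 3 are the 2 highest arrays in every panel.

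Gbe1 read 539.8, 930.6 and 559.8 in knockout arrays 1 to 3, against 386.9, 435.7 and 364.4 in control arrays 1 to 3. Knockout replicate 2 was far above the other knockout arrays, by 0.76 on the log2 scale, and the lowest knockout array still exceeded the highest control array. The group means were 676.7 ± 220.1 in knockout and 395.7 ± 36.5 in control muscle (SD, n = 3 each). The log2 fold change was 0.73 ± 0.24 (SE, 95% interval 0.16 to 1.31), with an unadjusted p of 0.0197 and an adjusted p of 0.971 in limma. Without knockout replicate 2, the array that is also of female pattern and has the raised 3' over 5' ratio, it was 0.48, and without both this array and control replicate 3 it was 0.42. Control replicate 3, whose ratio was the highest of all, had the lowest Gbe1 value. Female-pattern control replicate 2 had the highest control value. A single probe set represents Gbe1, so no second one bears on it.

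The sequences upstream of Gbe1, Phkg1 and Ugp2 are shown because these are the 3 members whose groups did not overlap, 2 with higher and 1 with lower knockout values. Each sequence is the 250 bases before an annotated start, from RefSeq on GRCm38.p6, written 5′ to 3′ on the strand of the gene. Capitals mark matches on either strand to TGGGAA, the core that the Notch effector RBPJ binds, and to CANNTG, the E-box bound by myogenic factors. Ugp2 has 2 annotated starts.
Gbe1, chr16:70313699-70313948, plus strand: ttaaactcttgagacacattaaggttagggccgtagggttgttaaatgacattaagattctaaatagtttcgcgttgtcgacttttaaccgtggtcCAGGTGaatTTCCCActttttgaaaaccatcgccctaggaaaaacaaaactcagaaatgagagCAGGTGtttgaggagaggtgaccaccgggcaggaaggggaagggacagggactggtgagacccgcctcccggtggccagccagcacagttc
Phkg1, chr5:129879089-129879338, minus strand: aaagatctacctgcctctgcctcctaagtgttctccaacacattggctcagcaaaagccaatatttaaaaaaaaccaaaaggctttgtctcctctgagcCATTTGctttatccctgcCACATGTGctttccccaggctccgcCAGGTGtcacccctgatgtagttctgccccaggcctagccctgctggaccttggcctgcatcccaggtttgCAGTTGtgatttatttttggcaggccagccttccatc
Ugp2 first start, chr11:21371268-21371517, minus strand: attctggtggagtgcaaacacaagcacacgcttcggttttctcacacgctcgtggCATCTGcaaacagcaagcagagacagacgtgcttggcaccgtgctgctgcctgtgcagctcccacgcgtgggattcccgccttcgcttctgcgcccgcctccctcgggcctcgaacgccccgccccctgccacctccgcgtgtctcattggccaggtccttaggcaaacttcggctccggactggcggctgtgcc
Ugp2 second start, chr11:21370630-21370879, minus strand: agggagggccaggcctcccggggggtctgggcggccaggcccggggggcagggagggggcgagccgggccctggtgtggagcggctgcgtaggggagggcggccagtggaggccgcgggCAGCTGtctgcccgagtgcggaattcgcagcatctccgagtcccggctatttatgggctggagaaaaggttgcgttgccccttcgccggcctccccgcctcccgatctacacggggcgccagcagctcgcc
Among the 8 upstream windows of the 7 genes, TGGGAA was found in that of Gbe1 alone, as 1 match on the opposite strand (TTCCCA), and 21.6% of 32851 promoter windows of this length hold it. E-boxes numbered 5 for Phkg1, of which 2 overlap in CACATGTG, 2 for Gbe1 and 1 for each start of Ugp2, and 66.2% of all windows hold at least 1. Of the members whose groups overlapped, Pygm and Phka1 had 2 E-boxes each, Gys1 had 1 and Phkb had 0. The share of all windows with as many as Phkg1 was not counted. These matches describe letters, and no binding was measured.

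On the side of breakdown, Pygm was the steadiest of the 7. It read 5409, 5356 and 5573 in knockout arrays 1 to 3 and 5593, 5754 and 5227 in control arrays 1 to 3, so the highest array was 1.10 times the lowest. The log2 fold change was -0.02 ± 0.09 (SE, limma adjusted p = 0.988), and its 95% interval, -0.23 to 0.19, covers small differences in either direction. The value was 0.01 without control replicate 2.

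All 3 subunits of phosphorylase kinase had log2 fold changes above 0, as had 16 of the 18 skeletal muscle markers, and none of the 3 passed the threshold. Phkg1, the catalytic subunit, read 4175, 4769 and 3873 in knockout arrays 1 to 3, against 3788, 3688 and 3425 in control arrays 1 to 3. All knockout arrays were above all control arrays, though the gap between the nearest arrays was narrow. The log2 fold change was 0.23 ± 0.11 (SE, 95% interval -0.04 to 0.50; limma adjusted p = 0.971). This probe set, 1422315_x_at, is of the type that can also bind related transcripts. The other one, 1425164_a_at, gave 0.26, again without overlap (2989 to 3681 in knockout and 2554 to 2884 in control arrays). The highest Phkg1 value, like that of Gbe1, was in knockout replicate 2, and leaving that array out gave a log2 fold change of 0.15, and leaving out control replicate 3 as well gave 0.11.

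Phka1, the muscle alpha subunit, read 3123, 3830 and 3407 in knockout arrays and 3908, 3316 and 2669 in controls. The control arrays spanned the whole range, and the groups overlapped. The log2 fold change of 0.08 ± 0.16 (SE, 95% interval -0.31 to 0.47; limma adjusted p = 0.972) turned to -0.07 without control replicate 3. Its other probe sets were lowest in that same array, at 375.7 against 742.9 to 1085 in the other arrays for 1422744_at and at 1309 against 1894 to 2254 for 1435567_at. Their log2 fold changes were 0.36 and 0.15.

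Phkb, the beta subunit, read 2521, 2382 and 2451 in knockout arrays and 2532, 2264 and 1922 in controls. Knockout arrays lay close together, within the span of the controls. A log2 fold change of 0.14 ± 0.13 (SE, 95% interval -0.17 to 0.45; limma adjusted p = 0.971) fell to 0.03 when control replicate 3 was left out.

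Over the 17 alternatives the values of Gbe1, Phkg1 and Phkb stayed above 0 and those of Ugp2 below 0, while values on both sides of 0 were found for Gys1, Pygm and Phka1.

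**Figure D3:**
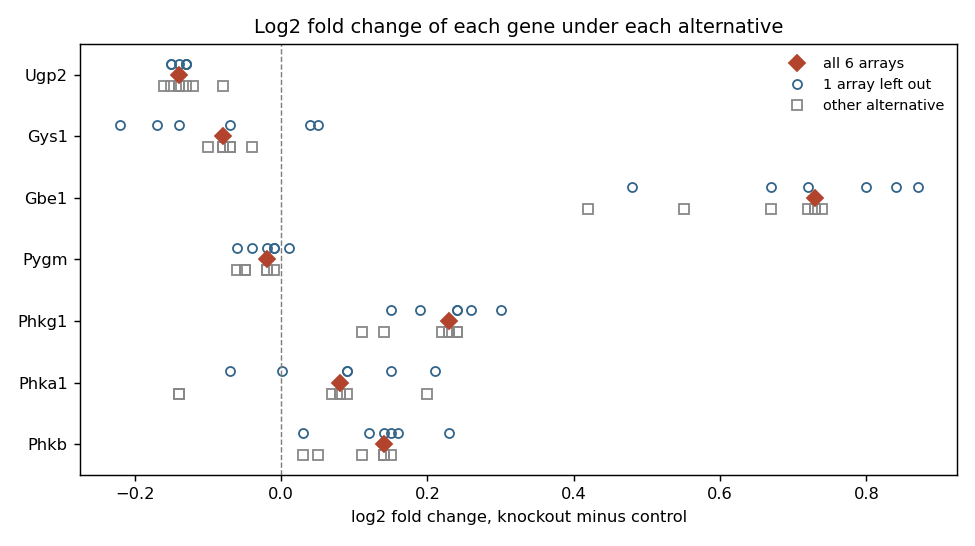
Log2 fold change of each of the 7 genes with all 6 arrays (diamond), with 1 array left out (circles) and under the other alternatives (squares). Gbe1 stays between 0.42 and 0.87 and Ugp2 between -0.16 and -0.08, whereas values of Gys1, Pygm and Phka1 lie on both sides of 0.

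**Figure D4:**
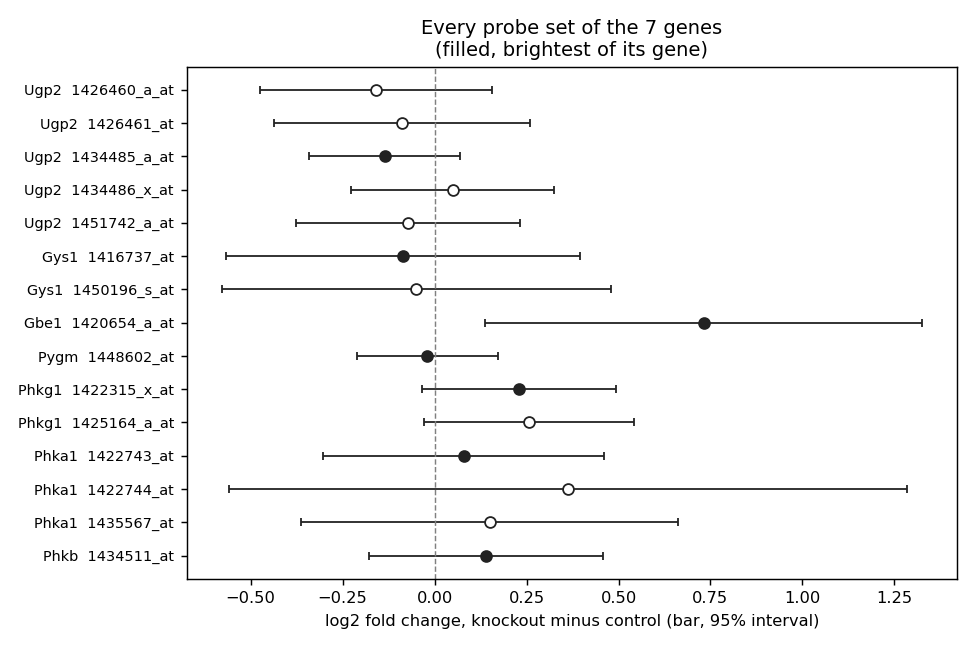
Log2 fold change, knockout minus control, of all 15 probe sets of the 7 genes, with 95% intervals from a limma fit over all 45101 probe sets. Filled points are the brightest probe set of each gene. The interval of the Gbe1 probe set (0.14 to 1.33) is the only one that leaves out 0, before adjustment.

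Fitted on all 45101 probe sets, 0 of the 15 passed the same threshold, against 0% of all probe sets (limma, adjusted p of 0.988 to 0.996). Knockout values were above all control values for 3 of the 15, the Gbe1 probe set and both of Phkg1, as for 2.93% of all probe sets. They were below all control values for 2 of the 15, both of Ugp2, as for 4.72%. Probe sets of 1 gene share its transcripts and are not independent.

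Over all 6 arrays Gbe1 and Phkg1 had the highest correlation among the 21 pairs of members. Both were higher in every knockout array than in any control array, and their correlation includes that shared group difference. Pearson's r of their log2 intensities over 6 arrays was 0.94, and it was 0.93 without control replicate 3 and 0.80 without knockout replicate 2. In that last setting the pairs Phkg1 and Phkb (0.87) and Phka1 and Phkb (0.81) were higher. Gbe1 and Ugp2 ran opposite, at -0.78, -0.75 and -0.89, values that include their opposite group differences. Lower values included Pygm and Phkg1 without control replicate 3 (-0.9) and Gys1 and Phkg1 without knockout replicate 2 (-0.94). Gbe1 and Gys1 had 0.14, or 0.71 without control replicate 3 and -0.66 without knockout replicate 2. The enzyme pair of synthesis and breakdown, Gys1 and Pygm, had -0.59, or -0.25 without control replicate 3 and -0.52 without knockout replicate 2. These values share the same arrays and describe them, with no test.

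Outside the 7, the genes most like each member over 6 arrays were ranked among 9655 genes above background. For Gbe1 they were Ppp3cb, a catalytic subunit gene of calcineurin (r = 0.988), and Arid5b, a DNA-binding protein gene (0.985). Arid5b read 531.8, 930.6 and 506.2 in knockout arrays and 373.0, 453.2 and 312.7 in controls, so that knockout replicate 2 stood out there too. Gys1 was nearest to Uggt1, which glucosylates misfolded glycoproteins with UDP-glucose (0.998), and to Ager (0.994). Ugp2 was nearest to Taf1a (0.994) and Shisa4 (0.981). Pygm had Tmem141 (0.997) and Dhrs1 (0.993), and Phkg1 had Pcdh19, a protocadherin gene (0.996), and Dock6 (0.989). Phka1 had Eps15l1 (0.990) and Ccdc167 (0.986), and Phkb had Cstf3 and Luzp1 (0.993 each). Without control replicate 3 these correlations were 0.957 to 0.997, but most of these genes were then no longer the nearest. Uggt1 and Pcdh19 still ranked 1 for their members, whereas Arid5b ranked 23 and Ppp3cb 34 for Gbe1, and Shisa4 ranked 45 for Ugp2. They rest on few arrays, and no p is given for them.

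Paralogues of the members that serve glycogen mainly in other tissues were measured too. Gys2, liver glycogen synthase, read 39.7 to 45.8 over all arrays, under the background. Pygl, liver phosphorylase, read 121.5 to 190.6 in knockout arrays and 60.5 to 135.2 in controls, and Pygb, the brain form, 110.8 to 173.0 and 123.5 to 372.9. Pygb was at its highest, and Pygl at its lowest, in control replicate 3. Phka2 and Phkg2, the liver subunits of phosphorylase kinase, had log2 fold changes of 0.42 ± 0.31 and 0.26 ± 0.29 (SE), with control replicate 3 lowest in both. Without that array Phkg2 had -0.02 and Phka2 0.16.

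The wider pathway was read from 4 further lists, in which no gene passed the adjusted test. Of 12 measured other glycogen enzymes 8 were higher and 4 lower, with a median log2 fold change of 0.13, where 8418 of all 18194 genes were higher and 9776 lower. In each direction 1 of the 12 had an unadjusted p under 0.05, as had 182 genes higher and 287 lower over all genes. Gaa, the lysosomal acid alpha-glucosidase that degrades glycogen in lysosomes, read 925.4, 1107 and 1203 in knockout arrays, against 1453, 1625 and 1665 in controls. Each knockout array was below each control array, as for 5.68% of all genes. Its log2 fold change was -0.56 ± 0.15 (SE; unadjusted p = 0.00653, limma adjusted p = 0.971), and it stayed between -0.64 and -0.45 when any 1 array was left out. The mean of its probe sets gave -0.34, with an unadjusted p of 0.0633 in limma. Gys2, the other of the 12 with an unadjusted p under 0.05, was under background in both groups.

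Of 14 regulators 8 were higher and 6 lower, with a median of 0.04. Ppp1cb, a catalytic subunit gene of protein phosphatase 1, which dephosphorylates glycogen synthase and phosphorylase when targeted to glycogen, read 2864, 3346 and 3118 in knockout arrays and 2331, 2680 and 1983 in controls. All knockout arrays were above all control arrays, as for 2 of the 14 regulators and 3.33% of all genes. The log2 fold change was 0.42 ± 0.14 (SE; unadjusted p = 0.0205, limma adjusted p = 0.971), or 0.26 without both arrays of high 3' over 5' ratio. With the mean of its probe sets it was 0.29, and the unadjusted p was then 0.131. Epm2a, the glycogen phosphatase laforin, had -0.33 ± 0.15 but lay under the background.

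Of 17 genes of glucose uptake and its signalling 7 were higher and 10 lower, with a median of -0.04 and none at an unadjusted p under 0.05. Prkaa2, the catalytic alpha subunit of AMP-activated kinase typical of muscle, had 0.26 ± 0.14 (SE), and 0.13 without control replicate 3. It was the 1 gene of the 17 whose groups did not overlap. Its knockout arrays were all above its control arrays, as for 3.33% of all genes. Prkag2, a regulatory subunit, had -0.46 ± 0.30, but -0.25 without knockout replicate 2, -0.27 without control replicate 3 and -0.05 without both arrays of high 3' over 5' ratio, and also -0.05 with the mean of its probe sets. Chosen after its values were seen, the glucose transporter gene Slc2a1 read 569.1, 3018 and 600.9 in knockout arrays and 508.1, 822.2 and 394.5 in controls. Knockout replicate 2 stood 2.37 above the other knockout arrays on the log2 scale, in the array where Gbe1 was also highest.

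Of 7 measured genes that use UDP-glucose or sugars made from it 4 were higher and 3 lower, with a median of 0.04. Galt, which exchanges UDP-glucose for UDP-galactose, had -0.35 ± 0.19 (SE). Its knockout arrays (487.2 to 576.0) lay below its control arrays (602.4 to 863.3), as for 5.68% of all genes. The log2 fold change of Galt was -0.19 without control replicate 3. Uggt2 had 0.33 ± 0.33, and -0.02 without that array.

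**Figure D5:**
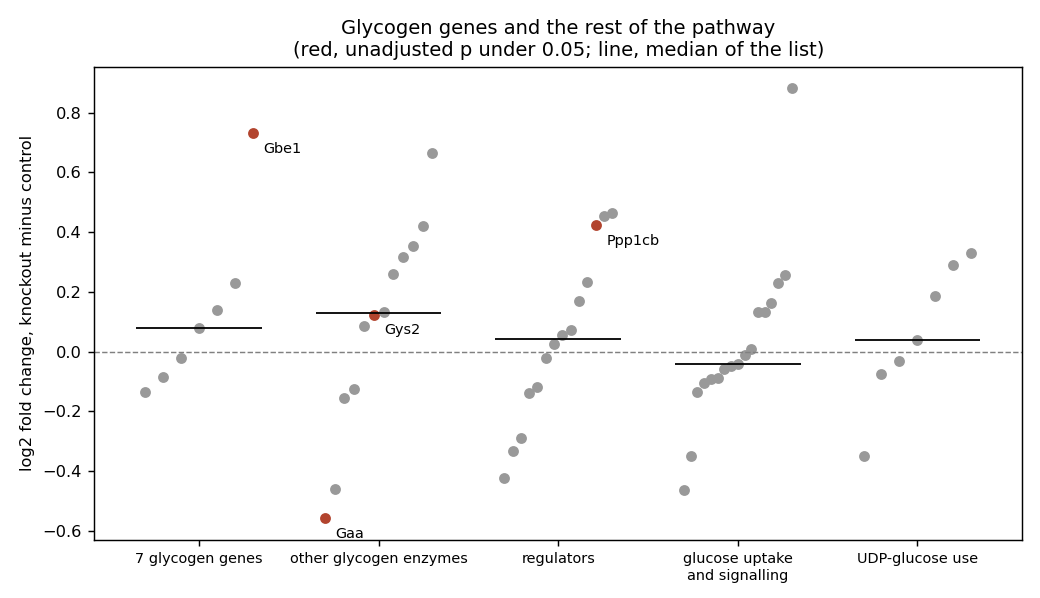
Log2 fold change, knockout minus control, of the 7 glycogen genes and 4 wider lists, 1 point a gene, with the list median as a line. Red points, with an unadjusted p under 0.05, are Gbe1, Gaa, Gys2 and Ppp1cb, and 0 genes passed after adjustment.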

How the data were processed

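Biotin-labelled cDNA, amplified from total RNA per the labels' protocols, was hybridised to 1 array per sample. The deposited values are probe set intensities on a linear scale (37.2 to 16069). GCOS and RMA are named in the submitters' processing notes, without versions, and whether RMA values were converted back from a log scale is unknown. RMA compresses differences of dim genes.

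Intensities were log2-transformed with no pseudocount. Of 45101 probe sets, 34958 had 1 gene symbol in the platform annotation, 932 had several and 9211 were not listed. Each of 18194 genes was represented by its brightest probe set. Groups were compared with limma 3.58.1 in R 4.3.3 (eBayes with an intensity trend and no covariate beside group, two-sided, Benjamini-Hochberg adjustment over all genes, threshold 0.05), and the fit was tested on simulated data. The simulation gave each gene the same spread in every array. It does not show how the fit handles an array that stands apart, as control replicate 3 does. The members and lists were chosen with earlier results of these data known. Named from each list were paralogues of members, Gyg and the 2 genes with the smallest p. Nothing in the labels states that each sample is a separate animal, and p-values cover the spread between these samples only, which may be technical. The number of arrays limits the precision. Alternatives covered normalization, variance models, filters, uses of probe sets, the replicate number as a block, array weights and left-out arrays.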

Additional observations from a re-analysis of the deposited data

How the results depend on the processing

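No gene passed under any of the 17 alternatives, and 0 of the 7 members did; the lowest adjusted p over all genes, 0.0579, came with array weights. Of 119 member values 113 kept their direction and 6 turned: Gys1 (0.04 without knockout replicate 1, 0.05 without control replicate 3, from -0.22 to 0.05 with any 1 array left out), Pygm (0.01 without control replicate 2, from -0.06) and Phka1 (-0.07 without control replicate 3, up to 0.21 without control replicate 1, -0.14 with array weights, and -0.14 without both arrays of high 3' over 5' ratio). Among other named genes Pygb turned to 0.02, 0.11 and 0.19 and Phkg2 to -0.02 and -0.02, under some of the same settings, Phka2 to -0.01 without both arrays, and Uggt2 to -0.02 without control replicate 3. With 1 array left out these ranged from -0.78 to 0.02 for Pygb, -0.02 to 0.41 for Phkg2 and -0.02 to 0.52 for Uggt2. The cause was not tested. Gbe1 ranged from 0.42 to 0.87, with unadjusted p of 0.0106 to 0.0507. Ugp2 had an unadjusted p of 0.000761 with ordinary t statistics, and an adjusted p of 0.968.

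Genes at an unadjusted p under 0.05 numbered 469, and 276 to 1090 with 1 array left out. They numbered 1854 with array weights, 1362 without both arrays, 786 with no intensity trend, 317 among genes above background and 883 over every probe set. With the replicate number as a block the count was 377 and 0 genes passed. Deviations of same-numbered samples from their group means correlated at 0.194, -0.146 and -0.114, within the span of differently numbered samples (-0.225 to 0.216). Replicate 2 had female-pattern Xist in both groups (1349 in knockout, 1414 in control) and the other numbers did not. A block on the number thus also separates that pattern. With 3 arrays per group, neither these correlations nor the Xist pattern can decide whether the numbers pair the samples.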
